A study of Mus musculus with 4 samples.

Results

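Proliferation and DNA replication genes were followed in the tibialis anterior (TA), which lifts the foot, by mRNA sequencing of the whole muscle. The set was fixed by name as 45 genes. A gene entered when its symbol was carried by a locus with a value in all 4 samples, which held for 44 of the 45, out of 20340 gene labels in all. Kif22 was not analysed here, because its locus had a value in only 2 samples. The mice were wild type C57BL/6, aged 20 months (Old, samples Old 1 and Old 2) or 3 months (Young, samples Young 1 and Young 2). The design text speaks of triplicates and the labels give 2 samples per age. A figure legend of the paper speaks of 2 independent sequencing experiments per sample and does not say whether these used separate mice. The labels do not say whether the 2 samples of one age came from separate mice either, so their spread may be technical. Old 1 lay above Old 2 by a median of 1.11 on the log2 scale and Young 2 above Young 1 by 1.08, over 9293 genes, and separate libraries cannot be told apart here from 1 library processed in different ways. Values are FPKM, fragments scaled to transcript length and to the mapped fragments of the sample, as deposited by the authors for each sample and gene locus (mm10). They hold no read counts, and the depth behind them is unknown. The lowest value above 0 was 0.00677 FPKM in Old 1 and 0.00657 in Young 2 but 2.9e-05 in Old 2 and 1.26e-05 in Young 1, and Cdc6, Cenpe, E2f1, Kif11 and Top2a had values in Old 2 or Young 1 below the lowest value of the other samples.

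The genes cover one cell division. Cdc6 and the MCM helicase license replication origins, Pcna and the enzymes of deoxynucleotide synthesis serve the replication fork, and D-type and E-type cyclins with their kinases act on Rb1 to release E2F factors. Cyclin A and cyclin B with Cdk1, the Aurora kinases, Plk1 and the spindle motors then carry the cell through mitosis. Nuclei of adult muscle fibers do not divide, so transcripts of mitosis are known mainly from the cells between the fibers, such as satellite cells, endothelial cells and leukocytes. Several genes of the set, among them Cdk4, Rb1, Pcna and H2afz, are also transcribed in cells that do not divide.

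The summed FPKM over the loci shared by all samples was 698130 in Old 1 and 739302 in Young 2, against 226747 in Old 2 and 251294 in Young 1. Each old sample was therefore also compared with the young sample of like sum, Old 1 with Young 2 and Old 2 with Young 1. This pairing rests on the sums and not on the labels. The median log2 ratio of old over young was -0.01 in the pair of higher sum and -0.03 in the pair of lower sum, over 10639 genes above 0 in all 4 samples. Among the 17 members that reached 1 FPKM in 2 samples or more and had no value at 0, the log2 ratio of Old 1 to Old 2 ran from 0.94 to 2.39 and that of Young 2 to Young 1 from 0.93 to 2.29. Old over young was 1.02 in each pair for Pcna, and 0.878 and 0.877 for Cdk4, so the second pair is not treated as independent of the first and agreement between the pairs is not read as replication. Markers of muscle fibers reached 35474 FPKM, for Tnnc2 in Old 1, whereas Ckm, a defining fiber gene, was listed at 0 in all 4 samples. A value of 0 is therefore described only as listed at 0.

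The set spanned low to moderate levels. Of the 44 members, 20 stayed under 1 FPKM in all 4 samples and only H2afz and Pcna reached 10 FPKM in all 4. The number listed at 0 was 0 in Old 1, 1 in Young 2, 15 in Young 1 and 19 in Old 2. It followed the FPKM sum and not the age: 13 members were at 0 in both samples of lower sum, 6 more in Old 2 and 2 more in Young 1.

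**Figure D1:**
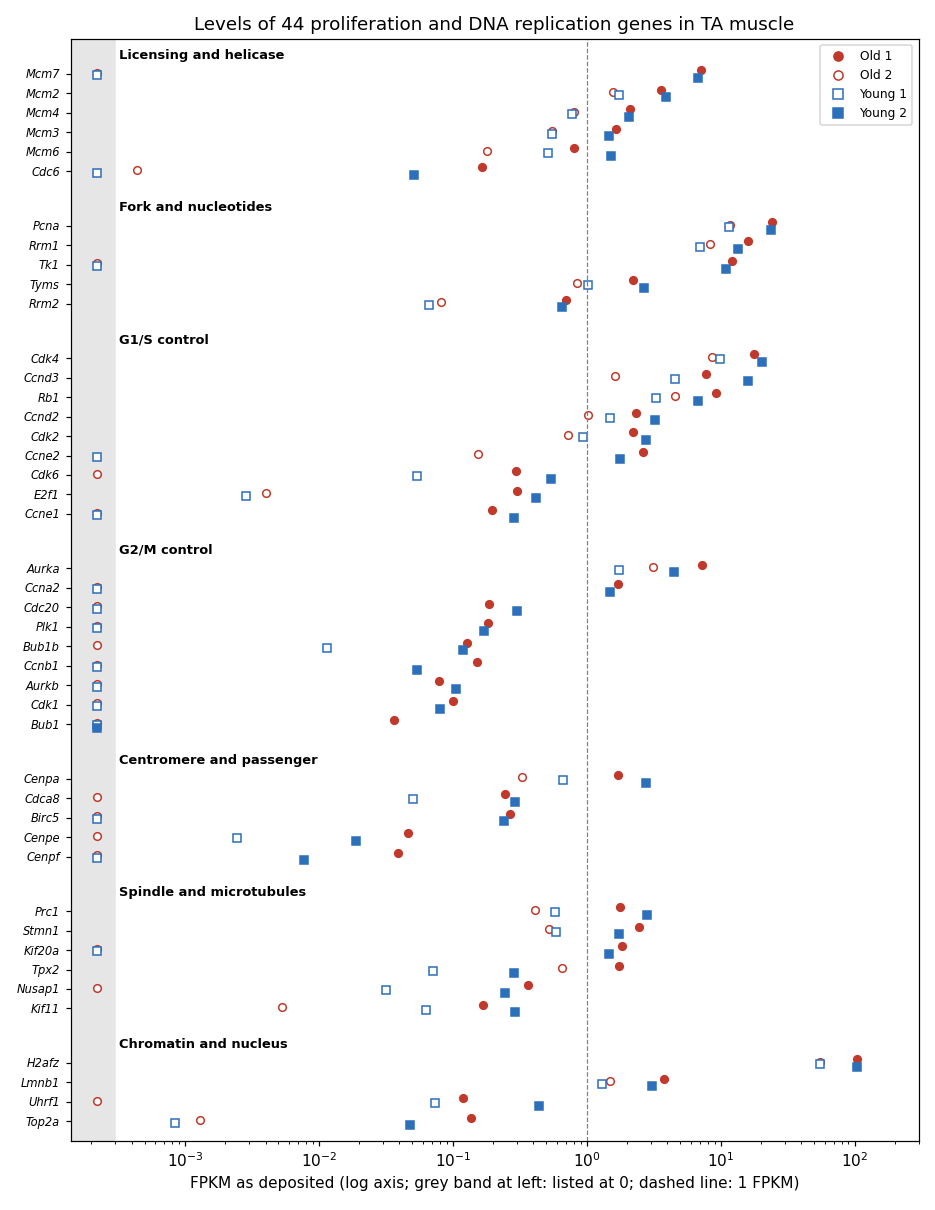
FPKM of the 44 members in each sample, on a log axis, grouped by role and ordered by mean level, with red circles for Old, blue squares for Young and filled symbols for the samples of higher FPKM sum. Filled symbols of both ages sit together to the right, open symbols sit to the left or in the grey band of values at 0, and 22 members reach the dashed line at 1 FPKM in at least 2 samples.

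Among genes at 1 FPKM or more in both samples of higher sum, values at 0 were more frequent where gene models overlapped. Mcm7, Tk1, Ccna2 and Kif20a reached at least 1 FPKM in both samples of higher sum and were at 0 in both of lower sum. All 4 share their mm10 locus with another gene (Mcm7 with Cops6, Tk1 with Syngr2 and Afmid, Ccna2 with Exosc9, Kif20a with Brd8 and Cdc23). Of the 8 members at that level that overlap another locus, the rest (Ccnd2, Ccnd3, Ccne2 and Rb1) were not at 0 in both. Ccnb1, Ccne1, Cdk1, Bub1, Aurkb, Plk1, Cenpf and Birc5 were also at 0 in both samples of lower sum and overlap no listed locus. Over all loci with a symbol and at least 1 FPKM in both samples of higher sum, 462 of 2226 that overlap another locus (20.8%) were at 0 in both samples of lower sum, against 35 of 7128 that do not (0.491%). The reason for these zeros was not tested.

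No member passed the test between ages with the values as deposited. log2(FPKM + 1) was compared with limma over the 10266 genes that reached 1 FPKM in 2 samples or more, and 22 members entered. At an adjusted p under 0.05, 0 of the 22 were called higher and 0 lower (0 at an unadjusted p under 0.05), against 0.175% of all tested genes called higher and 0.127% called lower. Their log2 fold changes ran from -1.03 for Ccnd3 to 0.59 for Aurka with a median of 0.03, beside a median of -0.01 over all tested genes. The standard errors ran from 0.93 to 1.02, so a 2-fold difference was about as large as its error. These errors were pooled over all tested genes and hold the FPKM factor between the 2 samples of one age. This fit could therefore call few changes, and the absence of calls does not show that the members were even. With each sample scaled to the same median, the standard error of Aurka dropped to 0.08, and 0 of the 22 passed (0 by limma, with 4 at an unadjusted p under 0.05), against 0.321% of all genes called higher and 0.302% called lower. Of all 10266 genes, 956 were higher and 1242 lower at an unadjusted p under 0.05 by limma, so 4 of 22 does not stand out. The smallest adjusted p among the 22 was then 0.0848, for Aurka. The call changed when the pairs of like FPKM sum were entered in limma as a block, a fit added after seeing the data. In that fit 3 of the 22 passed as higher in old muscle (Aurka, Rb1 and Rrm1) and 5 as lower (Ccnd2, Ccnd3, Cdk2, Cdk4 and Cenpa), against 27.4% of all genes called higher and 32.9% called lower. Its error is only the difference between the pairs, which would hold no spread between mice if the 2 samples of one age were 1 library. An exact permutation test of 2 samples against 2 gives no two-sided p under 0.333, so none was run. The ratios below are therefore values without a test of their own.

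Within the pairs, the set had no common direction. Of 23 members above 0 in all 4 samples, 9 were higher in old muscle in both pairs, 10 were lower in both and 4 differed in sign. Of all 10639 such genes, 44.8% were higher in both and 48.3% lower in both. The median log2 ratio of the 23 was 0.00 in the pair of higher sum and -0.02 in the pair of lower sum. At least 2-fold in both pairs, 1 member was higher (Tpx2, background 2.02%) and 1 was lower (Ccnd3, background 3.05%). Tpx2 was also the only one of the 23 whose 2 old values lay above both young values, and 0 had both old values below both young values. The shares over all 10639 such genes were 1.56% and 1.74%. Over all 44 members the counts were the same.

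**Figure D2:**
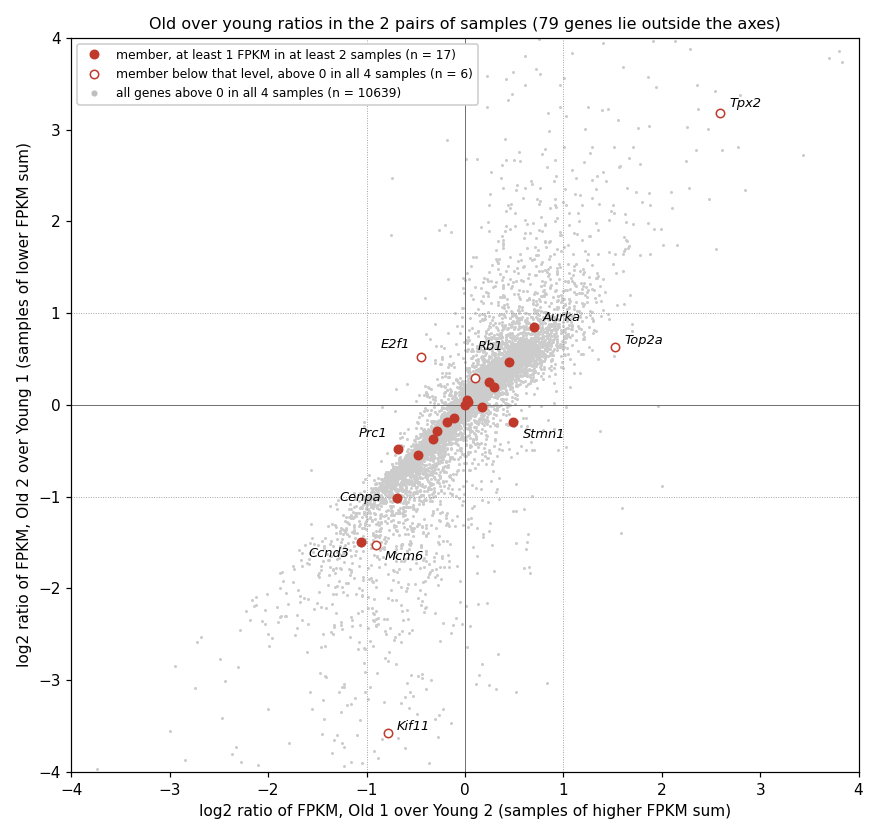
log2 ratio of FPKM, old over young, in the samples of higher sum (Old 1 over Young 2, horizontal) and of lower sum (Old 2 over Young 1, vertical), for all genes above 0 in all 4 samples (grey) and the 23 members among them (red). Most members lie near the origin along the diagonal, Tpx2 stands at 2.59 and 3.18, and Ccnd3 stands at -1.06 and -1.49.

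Promoter sequences are shown for the members with the largest ratio of the same sign in both pairs that have an entry in the RefSeq promoter table (GRCm38.p6, the assembly of mm10), ranked by the smaller of the 2 ratios, namely Aurka and Top2a on the side of old muscle and Ccnd3 and Mcm6 on the side of young muscle. Each run holds the 250 bases before the annotated start, 5′ to 3′ on the strand of the gene. Capitals mark CCAAT (the box bound by NF-Y), TTTGAA (the cell cycle homology region, CHR, of genes transcribed in mitosis) and TTGGCGC or TTCGCGC (E2F sites of genes of the G1/S transition), on either strand.
Aurka, chr2:172370571-172370820, minus strand: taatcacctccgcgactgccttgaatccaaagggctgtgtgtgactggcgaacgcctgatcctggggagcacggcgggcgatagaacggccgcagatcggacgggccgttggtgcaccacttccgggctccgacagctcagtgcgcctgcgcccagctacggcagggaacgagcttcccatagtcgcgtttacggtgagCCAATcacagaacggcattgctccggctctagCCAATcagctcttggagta
Top2a, chr11:99024190-99024439, minus strand: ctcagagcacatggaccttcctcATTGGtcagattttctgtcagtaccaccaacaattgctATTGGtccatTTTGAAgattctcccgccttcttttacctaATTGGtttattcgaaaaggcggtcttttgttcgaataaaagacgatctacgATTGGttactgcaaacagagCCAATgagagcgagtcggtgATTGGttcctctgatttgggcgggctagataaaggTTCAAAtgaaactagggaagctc
Ccnd3, upstream start, chr17:47504801-47505050, plus strand: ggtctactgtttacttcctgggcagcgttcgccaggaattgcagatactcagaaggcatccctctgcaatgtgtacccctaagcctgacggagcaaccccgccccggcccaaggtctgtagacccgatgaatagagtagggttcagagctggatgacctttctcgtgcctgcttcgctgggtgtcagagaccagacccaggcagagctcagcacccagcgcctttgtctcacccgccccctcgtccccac
Ccnd3, downstream start, chr17:47593217-47593466, plus strand: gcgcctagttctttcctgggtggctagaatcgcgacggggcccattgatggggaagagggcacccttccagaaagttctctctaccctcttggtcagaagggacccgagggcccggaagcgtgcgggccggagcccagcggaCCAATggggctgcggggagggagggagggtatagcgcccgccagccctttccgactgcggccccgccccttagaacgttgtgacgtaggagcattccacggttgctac
Mcm6, chr1:128359706-128359955, minus strand: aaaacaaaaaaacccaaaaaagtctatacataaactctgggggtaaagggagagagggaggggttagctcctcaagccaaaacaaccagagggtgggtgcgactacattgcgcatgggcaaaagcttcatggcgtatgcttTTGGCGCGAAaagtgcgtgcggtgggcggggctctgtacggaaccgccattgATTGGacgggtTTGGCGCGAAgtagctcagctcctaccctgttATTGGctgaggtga
In these windows Top2a had 6 CCAAT boxes and 2 CHR matches, Aurka had 2 CCAAT boxes, and Mcm6 had 2 CCAAT boxes and 4 E2F matches that overlap in 2 stretches. The upstream Ccnd3 window had none of the motifs and the downstream one had 1 CCAAT box. Of 33 members in the table, 24 (72.7%) had a CCAAT box, against 37.5% of 27025 genes. The CHR letters were found in 6 of 33 (18.2%), against 18.3% of genes, and the E2F letters in 4 of 33 (12.1%), against 3.66%. A match is a string of letters and was not tested as a site. The entries of Aurkb, Ccna2, Ccnd2, Ccne2, H2afz, Kif20a, Lmnb1, Mcm4, Rb1, Stmn1 and Tpx2 were not used here.

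Of the origin licensing genes, Mcm2, Mcm3 and Mcm4 were close to even between ages. Mcm2, a helicase subunit, had 3.61 FPKM in Old 1 and 1.57 in Old 2, against 1.73 in Young 1 and 3.91 in Young 2. For Mcm3 the FPKM was 1.66 and 0.546 in the old samples and 0.555 and 1.47 in the young samples, in the order of their numbers. Mcm4 had 2.11 and 0.803 FPKM in the old samples and 0.777 and 2.08 in the young samples. The ages overlapped for all 3, and the ratio of old over young lay between 0.906 and 1.13 in both pairs. Mcm7, listed at 0 in Old 2 and Young 1, had 7.14 FPKM in Old 1 and 6.79 in Young 2. Mcm6 differed from the other subunits, with 0.810 and 0.180 FPKM in the old samples and 0.517 and 1.52 in the young samples. Young muscle was 1.87-fold higher in the pair of higher sum and 2.88-fold higher in the other, although Old 1 still lay above Young 1. Mcm6 did not reach the level for the test. Cdc6, the loader of the helicase, had 0.165 FPKM in Old 1 and 0.0517 in Young 2, and at most 0.000439 in the samples of lower sum. Old 1 was 3.19-fold above Young 2 for Cdc6, at values far under 1 FPKM.

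Genes of the fork and of deoxynucleotide supply showed small ratios that were close between the pairs. Pcna, the sliding clamp of DNA polymerase, had 24.3 and 11.8 FPKM in the old samples and 11.6 and 23.7 in the young samples. Rrm1, the large subunit of ribonucleotide reductase, had 15.9 and 8.28 FPKM in the old samples and 6.97 and 13.5 in the young samples. Tyms, thymidylate synthase, had 2.21 and 0.847 FPKM in the old samples and 1.03 and 2.68 in the young samples. Old over young was 1.18 and 1.19 for Rrm1 and 0.824 and 0.822 for Tyms, with overlapping ages. Rrm2, the subunit of ribonucleotide reductase that is made in S phase, was far below Rrm1, with 0.700 and 0.0815 FPKM in the old samples and 0.0663 and 0.650 in the young samples. Tk1, thymidine kinase, had 12.1 FPKM in Old 1 and 10.9 in Young 2, and was at 0 in the other samples.

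The members of G1/S control had no single direction. Of the 6 above 0 in all 4 samples, 4 were lower in old muscle in both pairs (Ccnd2, Ccnd3, Cdk2 and Cdk4), Rb1 was higher in both and E2f1 differed in sign. Over all 10639 genes above 0 in all 4 samples, 48.3% were lower in both pairs, and 6 members are too few to set apart from that share. Ccnd3, cyclin D3, which is also made in muscle cells as they leave the cell cycle, has its locus on chromosome 17 from 47505051 to 47611492 (mm10) and had 7.73 FPKM in Old 1 and 1.63 in Old 2, against 4.58 in Young 1 and 16.1 in Young 2. Old 2 was the lowest and Young 2 the highest, and the ages overlapped because Old 1 lay above Young 1. Young muscle was 2.09-fold higher in the pair of higher sum and 2.82-fold higher in the other. The log2 fold change was -1.03 with a standard error of 0.97 (adjusted p = 1.00 from limma). With the block of pairs, added after seeing the data, the adjusted p of Ccnd3 was 0.00634 by limma. That fit called 60.3% of all tested genes, and its error may hold no spread between mice. The locus is shared with Bysl, which had 9.41 and 4.25 FPKM in the old samples and 5.36 and 12.1 in the young samples. The part of the overlap in the ratio of Ccnd3 was not tested.

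Ccnd2, cyclin D2, had 2.33 and 1.02 FPKM in the old samples and 1.49 and 3.23 in the young samples. Cdk4, the kinase partner of the D cyclins, had 17.9 and 8.63 FPKM in the old samples and 9.85 and 20.4 in the young samples. For Cdk2, the partner of cyclins E and A, these were 2.22 and 0.727, and 0.940 and 2.78. The ages overlapped for each, and young muscle was higher by 1.39-fold and 1.46-fold for Ccnd2, by 1.14-fold in each pair for Cdk4, and by 1.25-fold and 1.29-fold for Cdk2. Cdk6, the other kinase of D cyclins, was low, with 0.296 FPKM in Old 1, 0.0545 in Young 1, 0.541 in Young 2 and a value of 0 in Old 2. Rb1, the pocket protein that restrains E2F, had 9.24 and 4.54 FPKM in the old samples and 3.29 and 6.79 in the young samples. It was 1.36-fold and 1.38-fold higher in old muscle. Ccne2, a cyclin E whose locus overlaps Ints8, had 2.61 and 0.155 FPKM in the old samples, a value of 0 in Young 1 and 1.77 in Young 2. E2f1 had 0.304 FPKM in Old 1 and 0.416 in Young 2, with 0.00407 in Old 2 and 0.00284 in Young 1. Ccne1 had 0.195 FPKM in Old 1 and 0.284 in Young 2.

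Mitotic kinases, cyclins and checkpoint genes were mostly at or close to 0, apart from Aurka and, in the samples of higher sum, Ccna2. Aurka, Aurora kinase A of the spindle poles, lies on chromosome 2 from 172355870 to 172370506 (mm10) and had 7.32 FPKM in Old 1 and 3.12 in Old 2, against 1.73 in Young 1 and 4.51 in Young 2. The old sample was the higher one in each pair, by 1.62-fold and 1.80-fold, and the ages overlapped because Young 2 lay above Old 2. The log2 fold change of 0.59 had a standard error of 0.99 (adjusted p = 1.00 from limma). With the block of pairs, added after seeing the data, the adjusted p of Aurka was 0.00567 by limma. That fit called 60.3% of all tested genes, and its error may hold no spread between mice. Cstf1, 109 bases from Aurka, had 15.4 and 7.52 FPKM in the old samples and 10.1 and 20.3 in the young samples. Its part in the value of Aurka was not tested. Ccna2, cyclin A2, had 1.72 FPKM in Old 1 and 1.50 in Young 2 and was at 0 in the samples of lower sum. The other 7 members of this role (Ccnb1, Cdk1, Plk1, Aurkb, Cdc20, Bub1 and Bub1b) lay between 0.0364 and 0.187 FPKM in Old 1 and at 0.301 FPKM or less in Young 2, and all 7 were at 0 in Old 2. Aurkb, the kinase of the chromosomal passenger complex, thus had 0.0787 FPKM in Old 1 and 0.105 in Young 2, while Bub1, a checkpoint kinase, was above 0 in Old 1 alone.

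Of the centromere genes, only Cenpa reached 1 FPKM. Cenpa, the histone H3 variant of the centromere, had 1.72 and 0.329 FPKM in the old samples and 0.662 and 2.77 in the young samples. Young muscle was 1.61-fold and 2.02-fold higher, with overlapping ages. Cdca8 and Birc5, subunits of the chromosomal passenger complex, had 0.244 and 0.268 FPKM in Old 1 and 0.293 and 0.240 in Young 2. In the samples of lower sum both were at 0, except for 0.0501 FPKM of Cdca8 in Young 1. Cenpe and Cenpf, kinetochore proteins of mitosis, stayed at 0.0461 FPKM or less in every sample.

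Tpx2 had the largest ratio of the set when members are ranked by the smaller of their 2 ratios. Tpx2, a spindle assembly factor that binds and activates the Aurka protein, lies on chromosome 2 from 152847964 to 152895321 (mm10) and had 1.73 FPKM in Old 1 and 0.650 in Old 2, against 0.0717 in Young 1 and 0.286 in Young 2. Both old samples lay above both young samples, the only such case in the set (1.56% of all 10639 genes above 0 in all 4 samples). Old muscle was 6.04-fold higher in the pair of higher sum and 9.07-fold higher in the other. Only 1 sample reached 1 FPKM, so Tpx2 was outside the test. Where 0.1 FPKM in 2 samples was enough to enter, its log2 fold change was 0.85 with a standard error of 0.64 (adjusted p = 1.00 from limma, 13436 genes). No listed locus overlaps Tpx2. Mylk2, a muscle kinase gene 7906 bases away, had 629 and 240 FPKM in the old samples and 154 and 352 in the young samples, and its part in the value of Tpx2 was not tested.

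The other spindle genes did not share this ratio. Prc1, a bundler of the central spindle, had 1.76 and 0.413 FPKM in the old samples and 0.576 and 2.82 in the young samples, 1.60-fold and 1.39-fold higher in young muscle. Stmn1, stathmin, a microtubule destabilizer, had 2.45 and 0.520 FPKM in the old samples and 0.594 and 1.74 in the young samples, and its ratios differed in sign between the pairs. Kif20a, a kinesin of cytokinesis, had 1.85 FPKM in Old 1 and 1.47 in Young 2 and was at 0 elsewhere. Kif11, the motor that separates the spindle poles, had 0.168 and 0.00532 FPKM in the old samples and 0.0636 and 0.289 in the young samples. Young muscle was 1.72-fold higher in the pair of higher sum and 12.0-fold higher in the other, where the old value lay under the lowest value of the samples of higher sum. Nusap1, a spindle-associated protein, had 0.365 FPKM in Old 1, 0.243 in Young 2 and 0.0320 in Young 1 and was at 0 in Old 2.

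H2afz, the most abundant of the set, was even between ages. This gene of the histone variant H2A.Z had 105 FPKM in both Old 1 and Young 2, 54.9 in Old 2 and 55.1 in Young 1, which gave ratios of 1.00 and 0.995. Lmnb1, lamin B1 of the nuclear envelope, had 3.77 and 1.50 FPKM in the old samples and 1.31 and 3.07 in the young samples, 1.23-fold and 1.15-fold higher in old muscle with overlapping ages. Uhrf1, which maintains DNA methylation at replication, had 0.119 FPKM in Old 1, 0.0740 in Young 1 and 0.441 in Young 2 and was at 0 in Old 2. Top2a, the topoisomerase often used to mark dividing cells, had 0.137 FPKM in Old 1 and 0.0477 in Young 2, and 0.00130 and 0.000838 in Old 2 and Young 1.

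**Figure D3:**
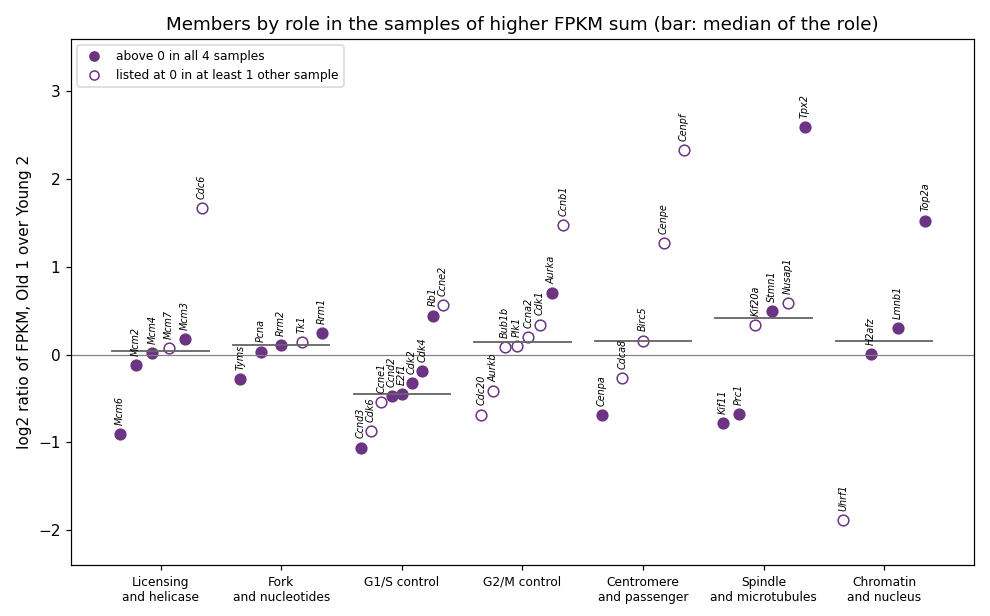
log2 ratio of Old 1 over Young 2 for the 43 members above 0 in both samples, by role, with a bar at the median of each role and open symbols for members at 0 in another sample. The bar of G1/S control lies at -0.45 and that of the spindle genes at 0.41, and the widest ratios among open symbols (Cenpf, Cdc6, Uhrf1) belong to genes under 0.5 FPKM.

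In the pair of higher sum, where zeros were few, 26 members were higher in Old 1 and 17 were higher in Young 2, with a median log2 ratio of 0.09 over the 43. The same split over all genes was not counted, so 26 against 17 is not read as a direction of the set. Of the 44 members, 21 were at 0 in at least 1 sample. For the 23 members above 0 in all 4 samples the median was 0.00 in this pair, beside -0.01 over all 10639 such genes. By role, the median was 0.04 for licensing, 0.11 for the fork and nucleotides, -0.45 for G1/S control, 0.15 for G2/M control, 0.16 for the centromere, 0.41 for the spindle and 0.15 for chromatin and the nucleus. The spindle median includes 2 members at 0 in another sample, and of the 4 above 0 in all samples 1 was higher in old muscle in both pairs (Tpx2), 2 were lower (Kif11 and Prc1) and Stmn1 differed in sign. In G2/M control only Aurka was above 0 in all 4 samples, and it was higher in old muscle in both pairs. In the centromere role only Cenpa was, and it was lower in both, against the sign of the median of its role. The medians of the roles rest on 4 to 9 genes each and carry no test.

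Further genes of the same processes were read from lists. On a list of 49 further replication genes, 39 had a value and 25 were tested, and on a list of 54 further mitosis genes, 41 had a value and 8 were tested. By limma 0 of the 32 with a locus label of their own passed, against 0.302% of all tested genes. Their median log2 fold change was 0.07 beside -0.01 over all tested genes. With the block of pairs 15 of the 32 passed, 7 of them higher in old muscle. That fit called 60.3% of all tested genes, 27.4% higher and 32.9% lower. Of 30 replication genes above 0 in all 4 samples, 16 were higher in old muscle in both pairs and 8 lower, and of 11 mitosis genes 2 were higher and 7 lower. Among all 10639 such genes, 44.8% were higher in both pairs and 48.3% lower. At least 2-fold in both pairs there were 0, against 2.02% of the 10639 genes higher and 3.05% lower. The mitosis list was at 0 in both samples of lower sum for 25 of its 41 genes.

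In whole muscle, fewer cells of a type and less RNA per cell cannot be told apart, and markers of the cells between the fibers were read beside the set. Summed FPKM of 9 macrophage and leukocyte markers was 36.2 in Old 1 and 54.4 in Young 2, and 13.1 in Old 2 and 21.0 in Young 1, with 8 of the 9 lower in old muscle in both pairs. For 9 fibroblast markers the sums were 255 and 416, and 126 and 207, with 7 of 9 lower in both pairs and 2 higher (Pdgfra and Dcn). Endothelial markers were lower in old muscle in both pairs for 6 of 9 and higher in both for 2. The shares over all 10639 genes above 0 in all 4 samples were 48.3% lower in both pairs and 44.8% higher. No marker list was tested against these shares. Of 9 satellite cell markers, 8 were above 0 in all 4 samples, of which 4 were higher and 3 lower in old muscle in both pairs. The sums over the 9 were 67.7 and 92.9 FPKM in Old 1 and Young 2, and 31.7 and 44.3 in Old 2 and Young 1. Itga7 alone was the largest part of each sum, with 30.3 and 53.2 FPKM, and 15.6 and 26.9, in the same order. Pax7, which defines these cells, was 1.14-fold and 1.07-fold higher in old muscle. Myf5, Sdc4 and Vcam1 were also higher in old muscle in both pairs. Itga7 was 1.75-fold and 1.73-fold, Myod1 1.27-fold and 1.24-fold and Myog 1.03-fold and 1.11-fold higher in young muscle. The erythroid list had 3 of 9 genes with a value. Its sum was 6.85-fold and 7.02-fold higher in old muscle, nearly all from Hba-a1 and Hba-a2, which carry the same values. The part of any of these cells in the values of the members was not tested.

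**Figure D4:**
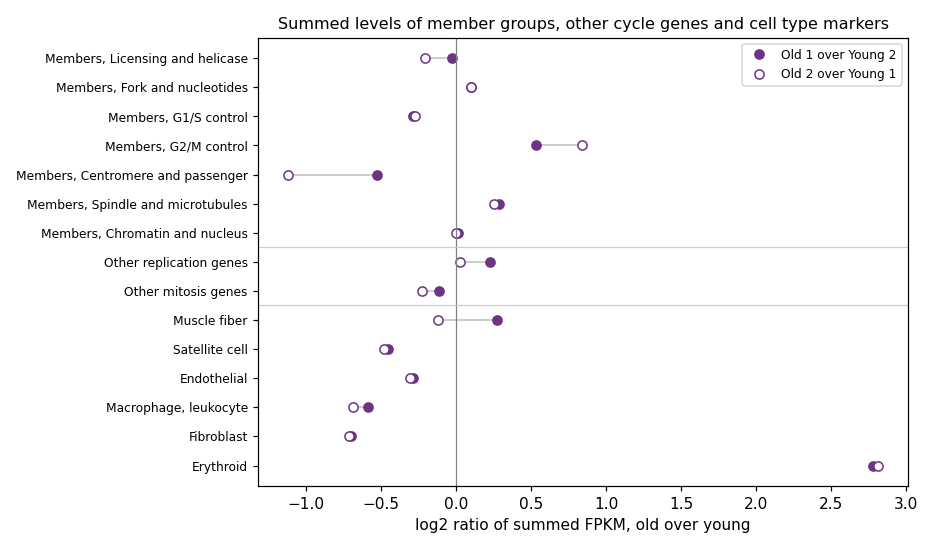
log2 ratio of summed FPKM, old over young, for the 7 roles of the set, for the other replication and mitosis genes and for 6 lists of cell type markers, with filled symbols for Old 1 over Young 2 and open symbols for Old 2 over Young 1. Fork and nucleotide genes lie at 0.10 in both pairs, fibroblast markers at -0.70 and -0.72, and erythroid markers at 2.78 and 2.81.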

How the data were processed

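mRNA-seq libraries of TA muscle from 2 Old and 2 Young samples were grouped by the titles and ages in the labels. The deposited FPKM of each locus came from Cufflinks, run by the authors per sample on RefSeq genes over TopHat2 (2.0.10) alignments to mm10. Reads marked as PCR copies were not in those alignments, so highly expressed genes may be understated, and adaptors had been clipped. Cuffdiff (2.1.1) is also named by the labels, and was not rerun here. The labels and the methods name different TruSeq kits, so whether the libraries kept strand is unclear.

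The 1 incomplete last line of each file was left out, and 20605 loci with a value in all 4 samples were kept. The values end on chromosome 7 or 8 in text order, and genes beyond were not analysed here. Loci of one symbol were summed. The test was limma (3.58.1, R 4.3.3) on log2(FPKM + 1), with moderated variances that follow the mean level, a two-sided test and Benjamini-Hochberg adjustment over all genes that reached 1 FPKM in 2 samples or more. Fold changes on this scale understate the change of low genes. Ratios of FPKM were taken within the pairs of like FPKM sum.

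The members and all lists were chosen with earlier results of these data known. Members at 1 FPKM or above in 2 samples, members above 0 in all 4 samples and the 5 highest of the rest were named with values, and others by range. Of the other lists, genes past the test or 2-fold apart in both pairs were to be named, and 0 were. Genes outside this rule were named after their values were seen. Motifs were chosen by hand and searched in RefSeq promoter windows. Alternatives were another pseudocount, other filters, median scaling, quantile normalization, the highest locus per symbol, no trend, the replicate number as a block and each sample left out. Python 3.11.15, pandas 2.3.3, numpy 2.4.6 and matplotlib 3.10.9 were used.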

Additional observations from a re-analysis of the deposited data

How the results depend on the processing

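Over all genes, 31 passed the threshold as deposited. The number moved to 0 with no filter (by limma, 23 higher and 29 lower at an unadjusted p under 0.05), 6 where every sample had to reach 1 FPKM, 64 with median scaling and 225 with quantile normalization. Members past it stayed at 0 in these settings and with a pseudocount of 0.1, a minimum of 0.1 FPKM, the highest locus per symbol and no trend. With the replicate block it was 5 genes and 0 members. Same-numbered samples deviated in opposite directions (correlation -0.885 over 10266 genes), so the numbers do not pair the samples. With the crossed pairs as a block, added after seeing the data, 6186 of 10266 genes (60.3%) and 8 of 22 members (36.4%) passed, 3 members higher and 5 lower, and 15 of 32 genes on the other lists. The median of the tested members was -0.00 without members at 0, another setting added later. The 2 members at least 2-fold apart in both pairs became 1 (Ccnd3) with at least 0.1 FPKM in all 4 samples, since Tpx2 lay under that level in Young 1. The counts of 9 higher and 10 lower kept within 1.5 times.

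Leaving out 1 sample in turn left 5 to 12 genes and 0 members past the threshold. The lone sample of its age was taken to vary like the others. The log2 fold changes of Aurka (0.0858 to 1.10) and Ccnd3 (-1.90 to -0.16) kept their sign, and those of the other tested members did not, with ranges of Ccna2 -0.66 to 0.78, Ccnd2 -0.71 to 0.0603, Ccne2 -0.53 to 1.12, Cdk2 -0.68 to 0.28, Cdk4 -0.66 to 0.31, Cenpa -0.99 to 0.19, H2afz -0.46 to 0.46, Kif20a -0.65 to 0.86, Lmnb1 -0.29 to 0.64, Mcm2 -0.51 to 0.33, Mcm3 -0.34 to 0.44, Mcm4 -0.38 to 0.41, Mcm7 -1.48 to 1.54, Pcna -0.46 to 0.52, Prc1 -0.95 to 0.33, Rb1 -0.0608 to 0.83, Rrm1 -0.21 to 0.66, Stmn1 -0.46 to 0.72, Tk1 -1.79 to 1.92 and Tyms -0.60 to 0.26. The median over all tested genes moved from -0.54 to 0.50 in the same fits. Of the 22 members, 1 (H2afz) changed sign with median scaling (0.00382) and with quantile normalization (0.0223). FPKM without counts limits what the low members can show: 22 of 44 were under the level for the test.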
